A study of Mus musculus with 78 samples.

Results

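MUP3, MUP8 and MUP15 are 3 of the 5 rows for major urinary proteins (MUPs) in a table of mouse liver transcript counts, and 3 of its 2205 genes with enough counts to be tested. They were taken by name, and the summed share of the 5 MUP rows, which adds MUP13 and MUP19, serves as context. Liver sections of male B6C3F1 mice, archived in paraffin after formalin fixation, were profiled by TempO-Seq, in which a pair of probes is ligated on each target transcript and the ligated products are counted by sequencing. The treated mice drank dichloroacetic acid (DCA), a by-product of water disinfection, at 3.5 g/L from an age of 4 weeks, and the controls drank deionized water. The question behind the design is how long changes in the liver outlast the exposure. S1 mice drank DCA for 10 weeks and were collected at that time (S1-10) or after a further 22, 47 or 68 weeks on water (S1-32, S1-57 and S1-78). S2 mice drank it for 32 weeks and were collected at once (S2-32) or 46 weeks later (S2-78), and S3 mice drank it for 57 weeks and were collected at once (S3-57) or 21 weeks later (S3-78). Direct-78 mice drank it for 78 weeks without a break. Control-10, Control-32, Control-57 and Control-78 had drunk water alone for 10, 32, 57 and 78 weeks, and the number after each group's name is the week of collection. Each library came from 1 mouse, and the labels do not say which part of the liver a section was cut from.

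Of 78 libraries, the 68 that the authors kept in their normalized table were used. That left 4 mice in Control-10, S2-78 and S3-78, 5 in S3-57, 3 in Direct-78 and 6 in each remaining group. Total counts per kept library ran from 541245 to 4285848 with a median of 2162678. At 10 weeks they were 1233543 to 2206672 in the controls and 1441966 to 2290453 in S1-10. At 32 weeks they were 721372 to 2731045 in the controls, 2979117 to 3914572 in S1-32 and 1484484 to 3049702 in S2-32. At 57 weeks they were 2223516 to 4153377 in the controls, 919268 to 3032863 in S1-57 and 1123317 to 2030701 in S3-57. At 78 weeks they were 2098777 to 4285848 in the controls, 1665464 to 3301147 in S1-78, 1187668 to 2475996 in S2-78, 1154431 to 1936370 in S3-78 and 541245 to 699825 in Direct-78. The totals of S1-32, S3-57, S3-78 and Direct-78 did not overlap those of their controls, so depth and treatment cannot be told apart in these groups. Levels are given as CPM, the counts of a gene per 1000000 counts of the library's total after scaling by its TMM factor, and group means with the SD. Reads carry no molecular identifiers, so every limit derived from a count covers counting error only.

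MUPs are small lipocalins, barrel-shaped carriers that the liver secretes and the kidney passes into urine, where they hold and slowly release volatile pheromones. In mice their liver transcripts are among the most abundant and are higher in males, because the male pattern of pulsed growth hormone acts through the transcription factor STAT5B in hepatocytes. The liver label was checked with hepatocyte markers: APOA1 and TTR, both plasma transport proteins, CPS1 of the urea cycle, the transcription factor HNF4A and the cytochrome CYP2E1 were the 5 of 8 listed markers on the panel, and ALB is not on it. Their summed level was 20038 to 93253 CPM of the plain totals in the 68 libraries with a median of 49988, and TTR was the most abundant with a mean of 23839 CPM. Mouse 68 of Control-10 stood apart: its hepatocyte markers held 2.00% of counts against 5.43%, 5.11% and 6.67% in mice 69, 71 and 72, and its MUP rows held 0.0452% against 21.0%, 23.9% and 18.3%. The 12 of 22 listed female-biased liver genes on the panel summed to 33609 CPM of the plain total in this mouse, the highest of the 68 libraries, whose median was 2861, and why was not tested. Low MUP shares occurred also with full marker levels, as in mouse 31 of S1-78 (0.697% MUP, 9.33% markers) and mouse 55 of S3-78 (0.0973% MUP, 5.04% markers). Genes of pancreas acinar cells, 14 of 17 listed being on the panel, held 0.603% of counts in mouse 17 of S1-10, 0.280% in mouse 19 of S1-32, 3.63% in mouse 36 of S1-78 and 1.62% in mouse 47 of S2-78, and at most 0.1% elsewhere. Of these genes CEL was the most abundant with a mean of 153 CPM, while CPB1, PNLIP, PRSS2, REG1 and PNLIPRP1 were at 0 in most libraries. Glands outside the liver also make MUPs, but 0 of 4 listed markers of such glands are on the panel. Fewer hepatocytes and less MUP transcript per hepatocyte cannot be told apart in these sections.

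The 22 Mup genes annotated in the mouse genome (GENCODE vM21, GRCm38) lie in 1 cluster on chromosome 4, chr4:59956804-62150863, 21 of them on the minus strand. Mup8 (ENSMUSG00000078687) lies at chr4:60218621-60222599, Mup15 (ENSMUSG00000096674) at chr4:61435790-61439743 and Mup3 (ENSMUSG00000066154) at chr4:62083476-62087342, each on the minus strand. The coding sequences of Mup8 and Mup15, 543 bases each, are identical at 536 positions (98.7%), those of Mup15 and Mup19 at 540 (99.4%), and Mup3, with 555 coding bases, matches Mup8 and Mup15 at 457 positions each (82.3%). A stretch of 50 coding bases shows how far the members can be told apart, coding bases 13 to 62 of Mup8 and Mup15 and 25 to 74 of Mup3, read 5′ to 3′ on the coding strand, with every base that differs from Mup8 in capitals.
Mup8: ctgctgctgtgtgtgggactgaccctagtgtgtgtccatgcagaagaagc
Mup15: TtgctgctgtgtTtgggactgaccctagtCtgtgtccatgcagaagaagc
Mup3: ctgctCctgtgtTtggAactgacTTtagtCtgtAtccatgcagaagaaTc
The Mup8 stretch occurs in Mup8 alone among the annotated transcripts. The Mup15 stretch has 3 differences from it and is identical in 4 genes, Mup13, Mup15, Mup16 and Mup19. The Mup3 stretch has 8 differences and occurs in Mup3 alone. Over whole transcripts, 789 of 935 windows of 50 bases in Mup3 (84.4%) are found in no other annotated gene, against 54 of 876 in Mup8 (6.16%) and 0 of 876 in Mup15.

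Which paralogs each probe reads is therefore uncertain, and no probe sequence was analysed here. The panel's symbols add to this: in RefSeq MUP15 is also an older name of Mup3, MUP8 of Mup10 and Mup19, MUP13 of Mup15, and MUP3 of Mup7, while the panel row GM2083 is an older name of Mup13. MUP8, MUP15 and MUP3 below mean the rows so named. The authors state that the most abundant transcripts were damped to the same degree in every sample, without naming them, so levels are compared between samples for 1 row and not between rows.

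Over the 68 libraries MUP8 ran from 282 CPM in mouse 68 of Control-10 to 823495 in mouse 78 of Control-32, with a median of 90560.5. Mouse 78 had a TMM factor of 0.535, so its scaled CPM is not a share of its counts. Its 5 MUP rows together held 48.1% of them. By group median it was highest in Control-32 at 432659 CPM, followed by Control-78, Control-57, S1-57, Control-10, S1-32, S1-10, S2-78, S1-78, S3-57, S2-32 and Direct-78, and lowest in S3-78 at 21966. All 12 pairs of neighbours in this order overlapped in their mice. MUP3, the member that differs most in sequence, ran from 14.7 CPM in mouse 68 to 17363 in mouse 77 of Control-32, with a median of 7285. Its medians stood in the order Control-78 at 13292 CPM, Control-32, S1-10, Control-57, S1-32, S1-78, Control-10, S1-57, S2-32, S2-78, S3-57, Direct-78 and S3-78 at 1390.3, and again 12 of 12 neighbours overlapped. MUP15 had medians from 6453 CPM in S1-32 to 10.5 in S3-78, and its highest single level was 9226 CPM in mouse 26 of S1-57. The order for MUP15 was S1-32, S1-10, S1-78, Control-78, Control-10, S2-32, S2-78, S1-57, Control-32, Control-57, S3-57, Direct-78 and S3-78, with overlap between 11 of 12 neighbours and none between S1-10 and S1-78. MUP15 had 0 counts in mouse 51 of S3-57, mouse 55 of S3-78 and mouse 68 of Control-10, where 3 counts, the limit that a count of 0 allows, correspond to 2.67, 2.10 and 2.43 CPM of the plain totals.

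**Figure D1:**
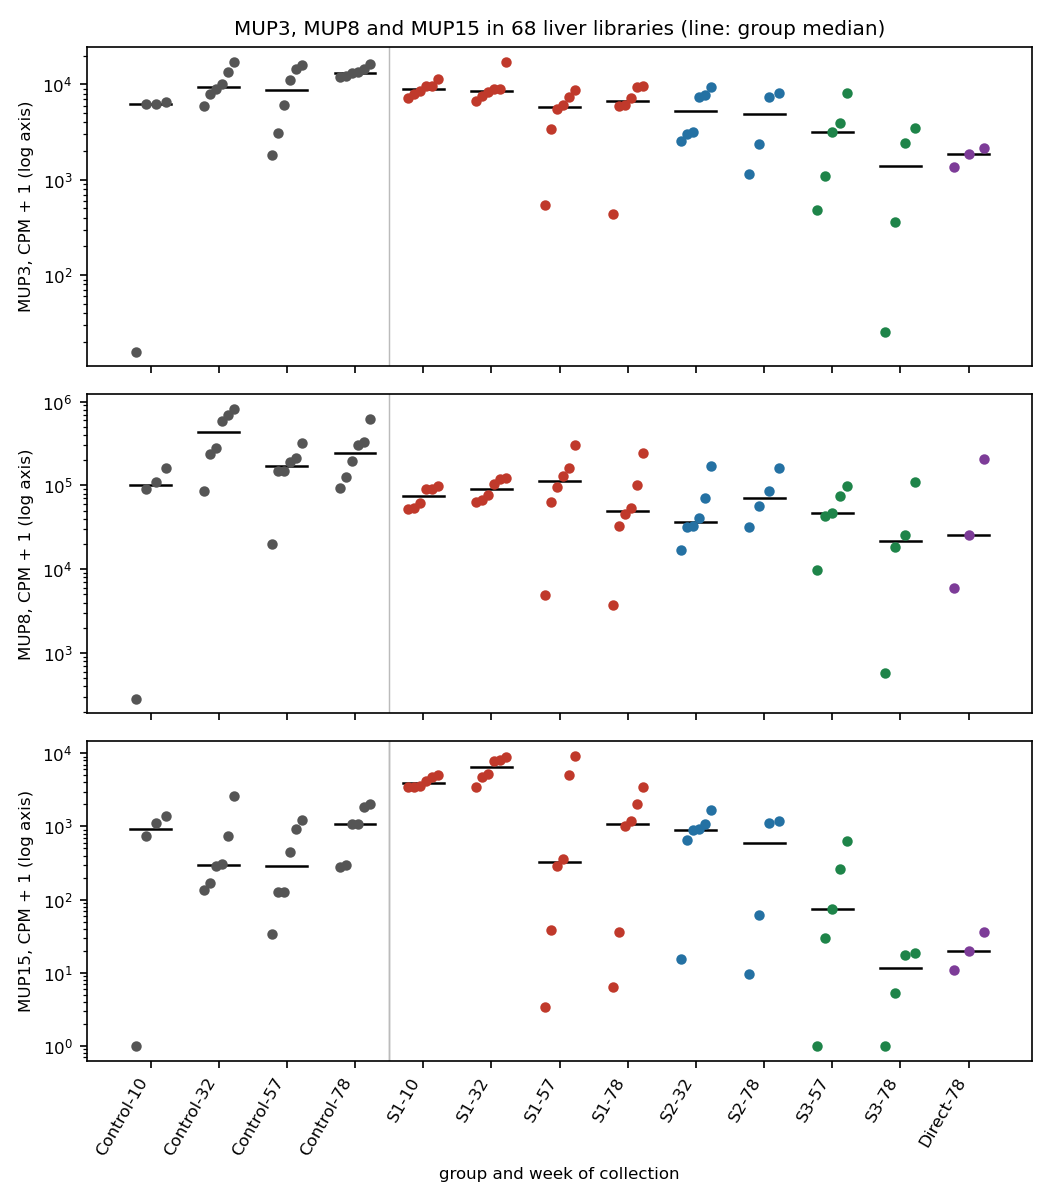
MUP3, MUP8 and MUP15 in each of 68 mice as TMM-scaled CPM plus 1 on log axes, with the week of collection in the group names and a line at each group median. MUP15 lies at 3423 to 8964 CPM in S1-32 and at 0 to 17.9 in S3-78.

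In untreated liver MUP8 and MUP3 stood higher at 32, 57 and 78 weeks than at 10 weeks in median, but neither passed the test, and the youngest group holds mouse 68. MUP8 in Control-10 was 282 CPM in mouse 68, 110403 in mouse 69, 159310 in mouse 71 and 91047 in mouse 72. It was from 86135 to 823495 CPM with a median of 432659 in Control-32, from 20209 to 323242 with a median of 171228 in Control-57 and from 94294 to 616659 with a median of 246307 in Control-78. Mouse 68 lay far below all other controls, and the 3 older groups overlapped each other and the remaining Control-10 mice. MUP3 in Control-10 was 14.7 CPM in mouse 68, 6542 in mouse 69, 6153 in mouse 71 and 6169 in mouse 72, and it was from 5907 to 17363 CPM with a median of 9452 in Control-32. In Control-57 MUP3 was from 1808 to 15885 CPM with a median of 8645, with the lowest value in mouse 84, and in Control-78 it was from 11948 to 16359 CPM with a median of 13292. All 6 Control-78 mice lay above the 4 of Control-10 for MUP3. MUP15 in Control-10 was 0 CPM in mouse 68, 1366 in mouse 69, 736 in mouse 71 and 1121 in mouse 72, and it was from 135 to 2602 CPM with a median of 298 in Control-32. It was from 33.1 to 1220.1 CPM with a median of 285 in Control-57 and from 279 to 2009 CPM with a median of 1078 in Control-78, so that the controls of all 4 ages overlapped.

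Against Control-10, MUP8 had a log2 fold change of 2.32 (SE 0.99, edgeR adjusted p = 0.201) in Control-32, 0.95 (SE 0.93, adjusted p = 0.679) in Control-57 and 1.61 (SE 0.96, adjusted p = 0.409) in Control-78. For MUP3 the values were 1.16 (SE 0.79, adjusted p = 0.447), 0.90 (SE 0.78, adjusted p = 0.620) and 1.53 (SE 0.80, adjusted p = 0.322). For MUP15 they were -0.19 (SE 1.25, adjusted p = 0.961), -0.76 (SE 1.24, adjusted p = 0.812) and 0.45 (SE 1.27, adjusted p = 0.912). A call needed a fold change above 1.5 with an adjusted p no higher than 0.05, and edgeR called 0 of the 3 members at each age, beside 1.59% of the 2205 tested genes at 32 weeks, 3.45% at 57 and 3.95% at 78. At an unadjusted p under 0.05 there was 1 member, MUP8 at 32 weeks, which DESeq2 also called at a log2 fold change of 2.54, and 1 member had groups that did not overlap, MUP3 at 78 weeks, beside 7.48% of genes. The sign of MUP15 at 32 weeks turned when any of 4 libraries was left out, mouse 69 (0.19), mouse 72 (0.02), mouse 75 (0.02) and mouse 76 (0.01), and when all 78 libraries were used (0.02), and relative to the median of all genes it turned with library totals alone (0.23).

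At the end of 10 weeks on DCA, MUP15 and MUP3 were higher in all 6 S1-10 mice than in all 4 controls of that age, while MUP8 overlapped, and no member passed the test. MUP15 was from 3471 to 5049 CPM with a median of 3866 in S1-10, against at most 1366 CPM in Control-10. MUP3 was from 7234 to 11353 CPM with a median of 9039, against at most 6542 in the controls. MUP8 was from 51584 to 97253 CPM with a median of 75518, and the 3 controls other than mouse 68 had 91047, 110403 and 159310 CPM. For MUP8 most of the S1-10 mice lay below those 3 controls, and all lay above mouse 68. MUP15 was 5.07-fold higher by the fit (log2 fold change 2.34, SE 1.37, adjusted p = 0.325), MUP3 1.92-fold higher (log2 fold change 0.94, SE 0.78, adjusted p = 0.518), and MUP8 had a value of -0.29 (SE 0.90, adjusted p = 0.875). edgeR called 0 of 3 members (0 at an unadjusted p under 0.05, 0 by DESeq2) beside 5.49% of all genes, and 2 of 3 members did not overlap between the groups, beside 14.9%. Without mouse 68 the values were 1.93 for MUP15 and 0.53 for MUP3, and MUP8 changed sign without mouse 71 (0.14) and with all 78 libraries (0.05).

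In S1-32, 22 weeks after DCA had stopped, MUP15 rose and MUP8 fell, and MUP3 stayed within the range of the controls. MUP15 was from 3423 to 8964 CPM with a median of 6453 in the 6 mice, against from 135 to 2602 CPM with a median of 298 in Control-32. Every S1-32 mouse lay above every control, the nearest control being mouse 74. MUP8 was from 63671 to 123543 CPM with a median of 90494, against from 86135 to 823495 CPM with a median of 432659. The treated mice sat close together at the low end of a wide control group and overlapped only its lowest mouse, 74. MUP3 was from 6673 to 17109.8 CPM with a median of 8596, against from 5907 to 17363 CPM with a median of 9452, with mouse 19 above the other 5 treated mice. By edgeR, MUP15 was 8.98-fold higher (log2 fold change 3.17, SE 1.21, adjusted p = 0.0428) and MUP8 4.89-fold lower (log2 fold change -2.29, SE 0.85, adjusted p = 0.0362), while MUP3 had -0.14 (SE 0.68, adjusted p = 0.888). The 2 of 3 members called stand beside 29.1% of all genes called here, and the 1 member whose groups did not overlap, MUP15, beside 10.0%. The call of MUP8 was lost without any of mouse 20 (-2.28), mouse 22 (-2.21), mouse 23 (-2.32), mouse 24 (-2.38), mouse 75 (-2.25), mouse 76 (-2.21) and mouse 78 (-2.19), with library totals alone (-2.04), with all 78 libraries (-2.35) and with depth as a covariate (-1.60). The call of MUP15 was lost without any of mouse 21 (3.02), mouse 22 (3.08), mouse 24 (3.10), mouse 73 (3.005), mouse 75 (2.94), mouse 76 (2.95), mouse 77 (3.16) and mouse 78 (2.98), with library totals alone (2.96), with all 78 libraries (3.15), without the 2 libraries of low rank correlation, computed without the MUP rows (2.92), and with depth as a covariate (1.13), and it was 4.27 without mouse 74. MUP3 came to 0.00, just above 0, without mouse 77. With depth as a covariate 36 of 2205 genes were called here, against 642 without it.

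By S1-57, 47 weeks after DCA, MUP15 differed widely between the 6 mice, from above every control to below every control, and no member passed the test. MUP15 was from 2.40 to 9226 CPM with a median of 322 in S1-57, against from 33.1 to 1220.1 CPM with a median of 285 in Control-57. Mice 25 and 26 had 5004 and 9226 CPM, above all 6 controls, mouse 27 had 2.40, below all of them, and the other 3 lay within their range. MUP8 was from 4874 to 302120 CPM with a median of 112341, against from 20209 to 323242 CPM with a median of 171228. MUP3 was from 537 to 8809 CPM with a median of 5794, against from 1808 to 15885 CPM with a median of 8645. Mouse 27 was the lowest of its group for all 3 members, and mouse 84 was the lowest control for MUP3 and MUP8. The fit gave 2.38 for MUP15 (SE 1.18, adjusted p = 0.356), -0.46 for MUP8 (SE 0.81, adjusted p = 0.878) and -0.73 for MUP3 (SE 0.68, adjusted p = 0.708) on the log2 scale. The MUP15 value rests largely on mice 25 and 26, with a group mean of 2485 CPM beside the median of 322. edgeR called 0 of 3 members, with 1 at an unadjusted p under 0.05 and 0 called by DESeq2, beside 1.59% of all genes.

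In S1-78, 68 weeks after DCA, MUP3 lay below the controls in all 6 mice, MUP8 was lower in median and MUP15 had a median close to that of the controls, and no member passed the test. MUP3 was from 441 to 9553 CPM with a median of 6646 in S1-78, against from 11948 to 16359 CPM with a median of 13292 in Control-78. MUP8 was from 3716 to 240415 CPM with a median of 49505, against from 94294 to 616659 CPM with a median of 246307. MUP15 was from 5.49 to 3432 CPM with a median of 1089.9, against from 279 to 2009 CPM with a median of 1078. Mouse 31 was the lowest of its group for each member, and the groups overlapped for MUP8 and MUP15. MUP3 was 2.11-fold lower by the fit (log2 fold change -1.08, SE 0.69, adjusted p = 0.514), MUP8 had -1.80 (SE 0.83, adjusted p = 0.303) and MUP15 0.21 (SE 1.12, adjusted p = 0.968). The MUP8 value rests in part on mouse 32, at 240415 CPM, with a group mean of 79439 CPM beside the median of 49505. edgeR called 0 of 3 members (1 at an unadjusted p under 0.05, 0 by DESeq2) beside 1.81% of all genes, and 1 of 3 did not overlap, beside 2.22%. MUP15 changed sign without mouse 34 (-0.38) or mouse 88, where it was just under 0, and relative to the median of all genes it was -0.01 with library totals alone. Whether the change in S1-32 differed from that in S1-78 was tested directly: the difference was 2.95 for MUP15 (SE 1.61, edgeR adjusted p = 0.251), 0.94 for MUP3 (SE 0.96, adjusted p = 0.545) and -0.49 for MUP8 (SE 1.14, adjusted p = 0.811). edgeR called 0 of 3 members in this test (0 at an unadjusted p under 0.05, 0 by DESeq2) beside 4.44% of genes, and MUP8 turned positive without mouse 32 (0.26).

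After 32 weeks on DCA, MUP8 fell in S2-32, while MUP3 and MUP15 overlapped the controls of that age. MUP8 was from 17013 to 169628 CPM with a median of 36903 in S2-32, against from 86135 to 823495 CPM with a median of 432659 in Control-32. 5 of the 6 S2-32 mice lay below the lowest control, and mouse 41 at 169628 CPM lay within the controls. MUP3 was from 2579 to 9402 CPM with a median of 5254, against from 5907 to 17363 CPM with a median of 9452. MUP15 was from 14.4 to 1687 CPM with a median of 903, with mouse 41 far below the other 5, against from 135 to 2602 CPM with a median of 298. Mouse 41 thus had the most MUP8 and the least MUP15 of its group. MUP8 was 7.46-fold lower (log2 fold change -2.90, SE 0.87, adjusted p = 0.0230, edgeR), MUP3 had -0.93 (SE 0.68, adjusted p = 0.348) and MUP15 0.29 (SE 1.12, adjusted p = 0.886). That is 1 of 3 members called, beside 10.7% of all genes. The call of MUP8 was lost without any of mouse 39 (-2.81), mouse 42 (-2.77) and mouse 78 (-2.77) and with all 78 libraries (-2.93), and it was -3.54 without mouse 41. MUP15 changed sign without mouse 38 (-0.05) and with depth as a covariate (-0.61), and relative to the median of all genes it was just under 0 with library totals alone.

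In S2-78, 46 weeks after the end of DCA, the 4 mice had less MUP3 than any control and divided into pairs for MUP15, and no member passed the test. MUP3 was 7449.7 CPM in mouse 43, 8195 in mouse 44, 1158 in mouse 45 and 2346 in mouse 47, all below the 11948 to 16359 CPM of Control-78. MUP8 was 86526 CPM in mouse 43, 56449 in mouse 44, 31741 in mouse 45 and 159339 in mouse 47, against 94294 to 616659. MUP15 was 1176 CPM in mouse 43, 1126 in mouse 44, 60.8 in mouse 45 and 8.60 in mouse 47, against 279 to 2009. For MUP15 mice 43 and 44 lay inside the control range and mice 45 and 47 below it, and mouse 47, low in MUP15, was the highest of the 4 in MUP8. The fit gave -1.51 for MUP3 (SE 0.80, adjusted p = 0.362), -1.72 for MUP8 (SE 0.96, adjusted p = 0.398) and -0.89 for MUP15 (SE 1.29, adjusted p = 0.791) on the log2 scale. edgeR called 0 of 3 members (0 at an unadjusted p under 0.05, 0 by DESeq2) beside 1.63% of all genes, and MUP3 was the 1 member that did not overlap, beside 3.17%. With log2 depth as a covariate MUP15 had the opposite sign (2.10), and with all 78 libraries MUP8 came to -0.46.

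After 57 weeks on DCA the S3-57 mice overlapped their controls for every member, with medians below the control medians, and no member passed the test. MUP3 was 3188 CPM in mouse 49, 8103 in mouse 50, 483 in mouse 51, 3904 in mouse 53 and 1107 in mouse 54, against from 1808 to 15885 CPM with a median of 8645 in Control-57. MUP8 was 74568 CPM in mouse 49, 98945 in mouse 50, 9705 in mouse 51, 43642 in mouse 53 and 46824 in mouse 54, against from 20209 to 323242 CPM with a median of 171228. MUP15 was 74.1 CPM in mouse 49, 637 in mouse 50, 0 in mouse 51, 259 in mouse 53 and 29.3 in mouse 54, against from 33.1 to 1220.1 CPM with a median of 285. Mouse 50 was the highest and mouse 51 the lowest of the 5 for each member. The log2 fold changes were -1.39 for MUP3 (SE 0.73, adjusted p = 0.298), -1.67 for MUP8 (SE 0.88, adjusted p = 0.298) and -1.25 for MUP15 (SE 1.21, adjusted p = 0.645). That of MUP15 rests in part on mouse 50, which raised the group mean to 200 CPM, beside a median of 74.1. For MUP3 mouse 50 was also the highest, and the mean of 3357 CPM lay close to the median of 3188. edgeR called 0 of 3 members (0 at an unadjusted p under 0.05, 0 by DESeq2) beside 6.39% of all genes. With all 78 libraries, which add mouse 52, MUP8 had the opposite sign (0.70), and with depth as a covariate MUP15 did (0.51).

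In S3-78, after 57 weeks on DCA and 21 on water, MUP3 and MUP15 fell below every control mouse, and MUP8 was lower without passing the test. MUP15 was 0 CPM in mouse 55, 17.9 in mouse 56, 4.23 in mouse 59 and 16.7 in mouse 60, against from 279 to 2009 CPM with a median of 1078 in Control-78. These levels rest on 0, 45, 8 and 22 counts, while the controls had at least 355. MUP3 was 24.5 CPM in mouse 55, 2423 in mouse 56, 358 in mouse 59 and 3504 in mouse 60, against from 11948 to 16359 CPM with a median of 13292. MUP8 was 572 CPM in mouse 55, 18216 in mouse 56, 25715 in mouse 59 and 111261 in mouse 60, against from 94294 to 616659 CPM with a median of 246307. For MUP3 and MUP15 no treated mouse reached the lowest control, whereas for MUP8 mouse 60 lay within the control range. By edgeR, MUP15 was 113-fold lower (log2 fold change -6.82, SE 1.76, adjusted p = 0.00647), MUP3 8.63-fold lower (log2 fold change -3.11, SE 0.87, adjusted p = 0.0112), and MUP8 7.09-fold lower (log2 fold change -2.83, SE 1.02, adjusted p = 0.0530). The 2 of 3 members called stand beside 13.3% of all genes, and the 2 that did not overlap beside 12.9%. With depth as a covariate neither MUP15 (-3.92) nor MUP3 (-2.49) was called, MUP3 was -3.86 without mouse 60, and with all 78 libraries both calls held, at -7.22 for MUP15 and -3.50 for MUP3. The depth covariate gave 117 called genes of 2205 here, against 294 without it. MUP8 was called without mouse 60 (-4.22), by DESeq2 (-2.67), with depth as a covariate (-3.89) and without the libraries of low rank correlation (-2.80), and it was -0.48 with all 78 libraries, which add mice 57 and 58.

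In the 3 Direct-78 mice, on DCA for all 78 weeks, MUP3 and MUP15 fell below every control, and MUP8 ranged from far below the controls to within them. MUP15 was 9.87 CPM in mouse 64, 18.9 in mouse 65 and 35.1 in mouse 66, on 10, 14 and 26 counts, against from 279 to 2009 CPM with a median of 1078 in Control-78. MUP3 was 1349 CPM in mouse 64, 1867 in mouse 65 and 2146 in mouse 66, against from 11948 to 16359 CPM with a median of 13292. MUP8 was 25934 CPM in mouse 64, 6036 in mouse 65 and 208114 in mouse 66, against from 94294 to 616659 CPM with a median of 246307. The 3 mice were alike for MUP3 and unlike for MUP8, where mouse 66 lay within the control range. By edgeR, MUP15 was 52.1-fold lower (log2 fold change -5.70, SE 1.91, adjusted p = 0.0263), MUP3 7.61-fold lower (log2 fold change -2.93, SE 0.97, adjusted p = 0.0246), and MUP8 had -1.79 (SE 1.08, adjusted p = 0.215). The MUP8 value rests largely on mouse 66, with a group mean of 80028 CPM beside a median of 25934. The 2 of 3 members called stand beside 24.4% of all genes, and the 2 that did not overlap beside 18.9%. The median log2 fold change of all genes was itself -0.33 here, and relative to it the values were -5.37 for MUP15, -2.60 for MUP3 and -1.46 for MUP8. With all 78 libraries, which add the left-out mice of this group, both calls held, at -6.16 for MUP15 and -3.52 for MUP3. Leaving out any 1 treated mouse ended both calls, MUP15 without mouse 64 (-5.19), mouse 65 (-5.42) and mouse 66 (-6.23) and MUP3 without mouse 64 (-2.65), mouse 65 (-2.78) and mouse 66 (-3.05). Depth as a covariate ended both calls (MUP15 -0.13, MUP3 -1.72), as did leaving out the libraries of low rank correlation (-6.22 and -3.04), and library totals alone ended that of MUP3 (-2.17). With that covariate 11 of 2205 genes were called here, against 539 without it.

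Continuous DCA thus went with levels on opposite sides of the controls at 10 and at 78 weeks for MUP15 and MUP3, and this difference was tested directly. The change in S1-10 minus that in Direct-78 was 8.05 for MUP15 (SE 2.34, edgeR adjusted p = 0.00699) and 3.87 for MUP3 (SE 1.23, adjusted p = 0.0130), and 1.498 for MUP8 (SE 1.38, adjusted p = 0.405). The MUP8 value rests largely on mouse 66 of Direct-78, at 208114 CPM beside 25934 in mouse 64 and 6036 in mouse 65. MUP15 was above every control in 6 of 6 S1-10 mice and below every control in 3 of 3 Direct-78 mice. The 2 of 3 members called stand beside 33.8% of all genes in this test, and relative to the median of all genes, 0.35, the values were 7.70, 3.52 and 1.15. With depth as a covariate neither call held (MUP15 2.74, MUP3 2.69), and with any 1 library left out both did. The depth covariate gave 11 called genes of 2205 in this test, against 745 without it.

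**Figure D2:**
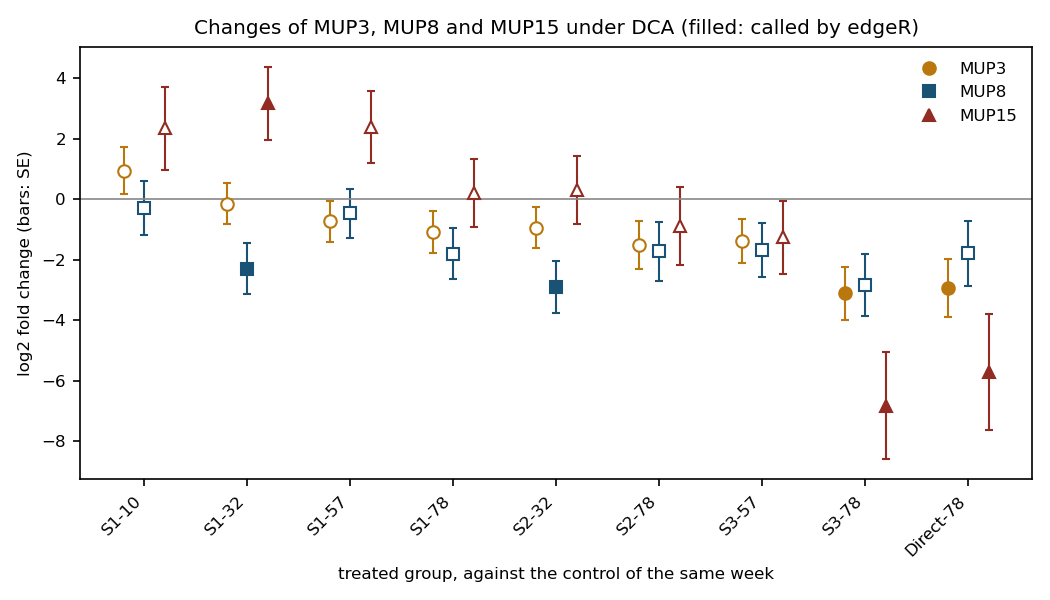
Log2 fold changes of MUP3, MUP8 and MUP15 in the 9 treated groups against the control of the same week, with bars for the SE of the fit and filled points for calls by edgeR. MUP15 goes from 3.17 in S1-32 to -6.82 in S3-78, and every MUP8 value lies below 0, that of S1-10 turning to 0.14 without mouse 71.

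Mice of the same age that were still on DCA were compared with mice taken off it, and no member passed the test in any of the 3 comparisons. The groups also differ in weeks on DCA, 32 against 10, 57 against 10 and 78 against 57. Stopping and length of exposure therefore cannot be told apart. Total counts of Direct-78, 541245 to 699825, did not overlap those of S3-78, 1154431 to 1936370, so depth cannot be told apart there either. MUP15 was lower in all 6 S2-32 mice, at 14.4 to 1687 CPM, than in all 6 S1-32 mice, at 3423 to 8964 (log2 fold change -2.87, SE 1.199, adjusted p = 0.181, edgeR). In S3-57 against S1-57 MUP15 overlapped and had -3.64 (SE 1.34, adjusted p = 0.637), and in Direct-78 against S3-78 it had 1.12 (SE 1.62, adjusted p = 0.780). MUP3 had -0.79 (SE 0.68, adjusted p = 0.591) in S2-32 against S1-32, -0.65 (SE 0.72, adjusted p = 0.996) in S3-57 against S1-57 and 0.18 (SE 0.89, adjusted p = 0.936) in Direct-78 against S3-78. MUP8 had -0.61 (SE 0.81, adjusted p = 0.770), -1.203 (SE 0.87, adjusted p = 0.958) and 1.04 (SE 1.06, adjusted p = 0.638) in the same order. In S2-32 against S1-32 edgeR called 0 of 3 members (1 at an unadjusted p under 0.05, 0 by DESeq2) beside 3.54% of genes, and 1 did not overlap, beside 11.6%. In S3-57 against S1-57 edgeR called 0 of 3 members (1 at an unadjusted p under 0.05, 0 by DESeq2) and 0 genes of 2205, 0.00%, with 111 at an unadjusted p under 0.05 and 7 called by DESeq2. In Direct-78 against S3-78 edgeR called 0 of 3 members (0 at an unadjusted p under 0.05, 0 by DESeq2) beside 5.03% of genes, and relative to their median of -0.27 the values were 0.45 for MUP3, 1.31 for MUP8 and 1.38 for MUP15. There MUP3 changed sign without mouse 55 (-0.10) or 59 (-0.01), MUP8 did without mouse 66 (-1.22), and with all 78 libraries MUP8 had -1.16 in this comparison and 1.17 in S3-57 against S1-57.

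The 5 MUP rows together held a large part of the counts in liver, and this summed share was lower in S1-32, S2-32 and S3-78 than in their controls. In Control-32 the share was 19.1% to 48.1% with a median of 37.96%, against 11.6% to 23.3% with a median of 18.1% in S1-32 and 5.13% to 23.8% with a median of 9.13% in S2-32. In Control-78 it was 14.6% to 39.6% with a median of 25.01%, and in S3-78 it was 0.0973% in mouse 55, 2.96% in mouse 56, 3.99% in mouse 59 and 14.1% in mouse 60. No S3-78 mouse reached the lowest control, while in S1-32 and S2-32 the highest mice lay above the lowest control, mouse 74. The means were 17.2% ± 4.62 (SD, n = 6) in S1-32 and 36.2% ± 12.4 (SD, n = 6) in Control-32, a difference of -19.0 percentage points, exact permutation p = 0.00866, adjusted p = 0.0286 over 9 tests. For S2-32 the mean was 11.6% ± 6.83 (SD, n = 6), a difference of -24.6 percentage points, exact permutation p = 0.00433, adjusted p = 0.0286, and for S3-78 it was 5.29% ± 6.10 (SD, n = 4) against 24.9% ± 9.13 (SD, n = 6), a difference of -19.6 percentage points, exact permutation p = 0.00952, adjusted p = 0.0286. In these exact permutation tests the smallest possible p was 0.00216 with 6 against 6 mice and 0.00476 with 4 against 6. The S1-32 test no longer passed without mouse 19 (-19.4), 20 (-17.9), 21 (-19.6), 22 (-18.9) or 23 (-18.0), and the S3-78 test without mouse 55 (-17.9), 56 (-18.8), 59 (-19.2) or 87 (-19.9). With all 78 libraries the S3-78 difference was -2.79, and the added mice 57 and 58 held 61.1% and 50.4% in MUP rows.

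In the other groups the summed share did not pass. It was 10.7% to 21.6% with a median of 17.5% in S1-10 and 0.0452% in mouse 68, 21.0% in mouse 69, 23.9% in mouse 71 and 18.3% in mouse 72 in Control-10 (a difference of 1.43 percentage points, exact permutation p = 0.819, adjusted p = 0.921), and without mouse 68 the difference was -3.82. In S1-57 it was 1.21% to 31.3% with a median of 20.0% and in Control-57 4.13% to 27.3% with a median of 20.0% (a difference of 0.121 percentage points, exact permutation p = 0.974, adjusted p = 0.974), a difference whose sign turned without mouse 25 (-2.47), 26 (-0.952), 28 (-1.85), 80 (-0.0135) or 84 (-2.70). In S1-78 it was 0.697% to 23.7% with a median of 13.4% (a difference of -11.7 percentage points, exact permutation p = 0.0368, adjusted p = 0.0662), and the test passed without mouse 32 (-13.8) or 85 (-13.8). In S2-78 the share was 20.9% in mouse 43, 17.3% in mouse 44, 5.41% in mouse 45 and 16.7% in mouse 47 (a difference of -9.83 percentage points, exact permutation p = 0.110, adjusted p = 0.141), and these mice lay on both sides of the lowest control. In S3-57 it was 9.98% in mouse 49, 13.7% in mouse 50, 1.54% in mouse 51, 8.37% in mouse 53 and 8.05% in mouse 54 (a difference of -9.91 percentage points, exact permutation p = 0.0346, adjusted p = 0.0662), the test passed without mouse 84 (-12.7), and with all 78 libraries the difference was 0.691. In Direct-78 it was 4.20% in mouse 64, 1.15% in mouse 65 and 25.1% in mouse 66 (a difference of -14.7 percentage points, exact permutation p = 0.107, adjusted p = 0.141), where 3 against 6 mice allow no p below 0.0119 in an exact permutation test. Mouse 66 of Direct-78 alone reached the control range.

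**Figure D3:**
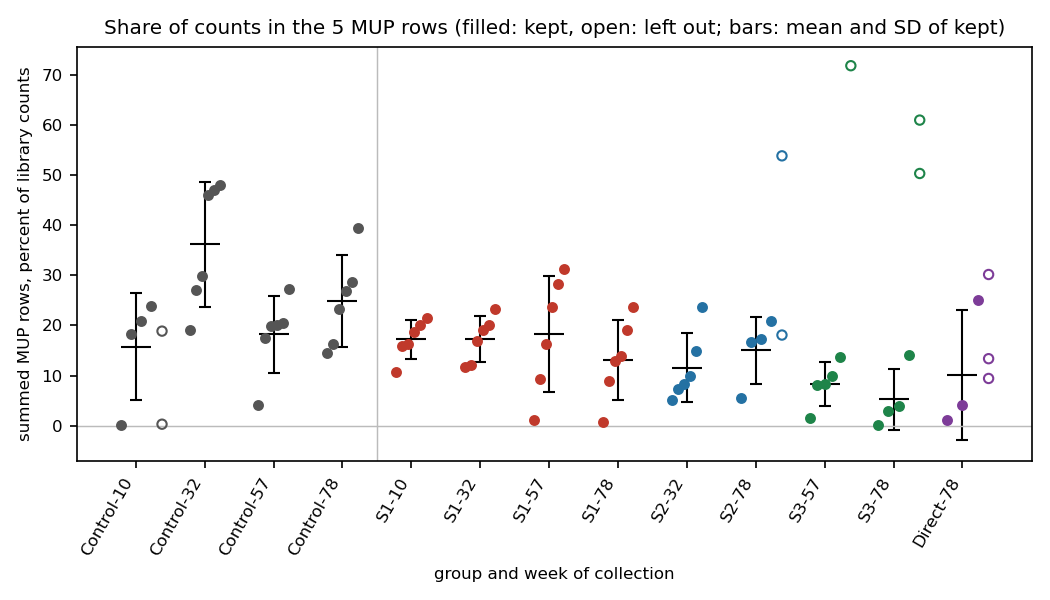
Percent of each library's counts in the 5 MUP rows, with filled points for kept and open points for left-out libraries, and bars for the mean and SD of kept libraries in each group. Left-out mice of S2-78, S3-57 and S3-78 reach 50.4% to 71.9%, above the kept mice of the same groups.

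Ratios between members within a library do not depend on scaling, and they show that the members changed unequally. After 10 weeks on DCA and again 22 weeks later, the S1 mice had more MUP15 per MUP8 than any control of the same week. The log2 ratio of MUP15 to MUP8 counts, each with 0.5 added, was -4.43 to -3.85 (median -4.15) in S1-10 and -9.91 in mouse 68, -6.34 in mouse 69, -7.76 in mouse 71 and -6.34 in mouse 72 in Control-10 (a difference of 3.44, exact permutation p = 0.00476, adjusted p = 0.0257 over 27 tests). It was -4.59 to -3.04 (median -3.97) in S1-32, against -12.08 to -5.05 (median -10.53) in Control-32 (a difference of 5.90, exact permutation p = 0.00216, adjusted p = 0.0257). In both weeks all 6 treated mice lay above all controls, p was the smallest that exact permutation allows, 0.00476 and 0.00216, and the adjusted tests passed with any 1 library left out. The sizes of the differences rest in part on mouse 68, the lowest of Control-10, and on mouse 74, the highest of Control-32 at -5.05. The value of mouse 68 is set by the 0.5 added to its 0 counts of MUP15, and with 3 counts it would be -7.10. In S2-32 the ratio was -13.49 to -4.73 (median -5.26) (a difference of 3.26, exact permutation p = 0.104, adjusted p = 0.255), and without mouse 41, the lowest, the difference was 4.65 and passed. In S3-78 it was -11.13 in mouse 55, -9.97 in mouse 56, -12.48 in mouse 59 and -12.67 in mouse 60, against -11.02 to -6.06 (median -7.35) in Control-78 (a difference of -3.49, exact permutation p = 0.0333, adjusted p = 0.0964), and the groups overlapped. Direct-78, with -11.29 in mouse 64, -8.27 in mouse 65 and -12.51 in mouse 66, gave a difference of -2.62, exact permutation p = 0.143, adjusted p = 0.321. The differences in S1-57, S1-78, S2-78 and S3-57, 0.96, 1.08, -0.67 and -0.96, did not pass, and those of S2-78 and S3-57 changed sign without mouse 47 (1.12) and mouse 51 (0.23).

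MUP15 also differed relative to MUP3. The log2 ratio of MUP15 to MUP3 was -1.49 to -0.76 (median -1.10) in S1-10 and -5.67 in mouse 68, -2.26 in mouse 69, -3.06 in mouse 71 and -2.46 in mouse 72 in Control-10 (a difference of 2.21, exact permutation p = 0.00476, adjusted p = 0.0257), with no overlap. The size of this difference rests in part on mouse 68, whose value is set by the 0.5 added to its 0 counts of MUP15. With 3 counts mouse 68 would be at -2.87, still below all S1-10 mice. The ratio was -1.74 to 0.43 (median -0.42) in S1-32 and -6.30 to -1.59 (median -4.98) in Control-32 (a difference of 4.04, exact permutation p = 0.00433, adjusted p = 0.0257), where mouse 74 was the 1 control within the treated range. In S3-78 the ratio was -6.60 in mouse 55, -7.06 in mouse 56, -6.31 in mouse 59 and -7.68 in mouse 60, against -5.62 to -2.71 (median -3.70) in Control-78 (a difference of -2.91, exact permutation p = 0.00952, adjusted p = 0.0367). Mice 56, 59 and 60 lay below all 6 controls, but the value of mouse 55 is set by the 0.5 added to its 0 counts of MUP15, and with 3 counts it would be -3.79, within the control range. In Direct-78 it was -7.03 in mouse 64, -6.58 in mouse 65 and -5.91 in mouse 66, below all controls (a difference of -2.50, exact permutation p = 0.0357, adjusted p = 0.0964). The S3-78 test did not pass without mouse 55 (-3.01), 56 (-2.86), 60 (-2.66), 85 (-2.81), 86 (-3.23), 87 (-2.66), 88 (-3.22), 89 (-2.89) or 90 (-2.65), nor with 5 counts added (-1.87). MUP3 against MUP8 was higher than in the controls in S1-10, with -3.40 to -2.46 (median -3.03) against -4.23 in mouse 68, -4.08 in mouse 69, -4.69 in mouse 71 and -3.88 in mouse 72 (a difference of 1.23, exact permutation p = 0.00476, adjusted p = 0.0257). It was -3.97 to -2.85 (median -3.14) in S1-32 and -4.17 to -2.07 (median -3.31) in S2-32, against -6.63 to -3.45 (median -5.22) in Control-32 (a difference of 1.86, exact permutation p = 0.00866, adjusted p = 0.0367 and a difference of 1.92, exact permutation p = 0.0130, adjusted p = 0.0438). The S1-32 test of this ratio did not pass without mouse 19 (1.77), 20 (1.79), 22 (1.78), 23 (1.87) or 24 (1.95), nor the S2-32 test without mouse 37 (1.69), 38 (1.93), 39 (1.82), 40 (2.03), 42 (1.95), 73 (2.01), 75 (1.63), 76 (1.81) or 78 (1.68). In the other 6 groups the MUP3 to MUP8 ratio did not pass.

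**Figure D4:**
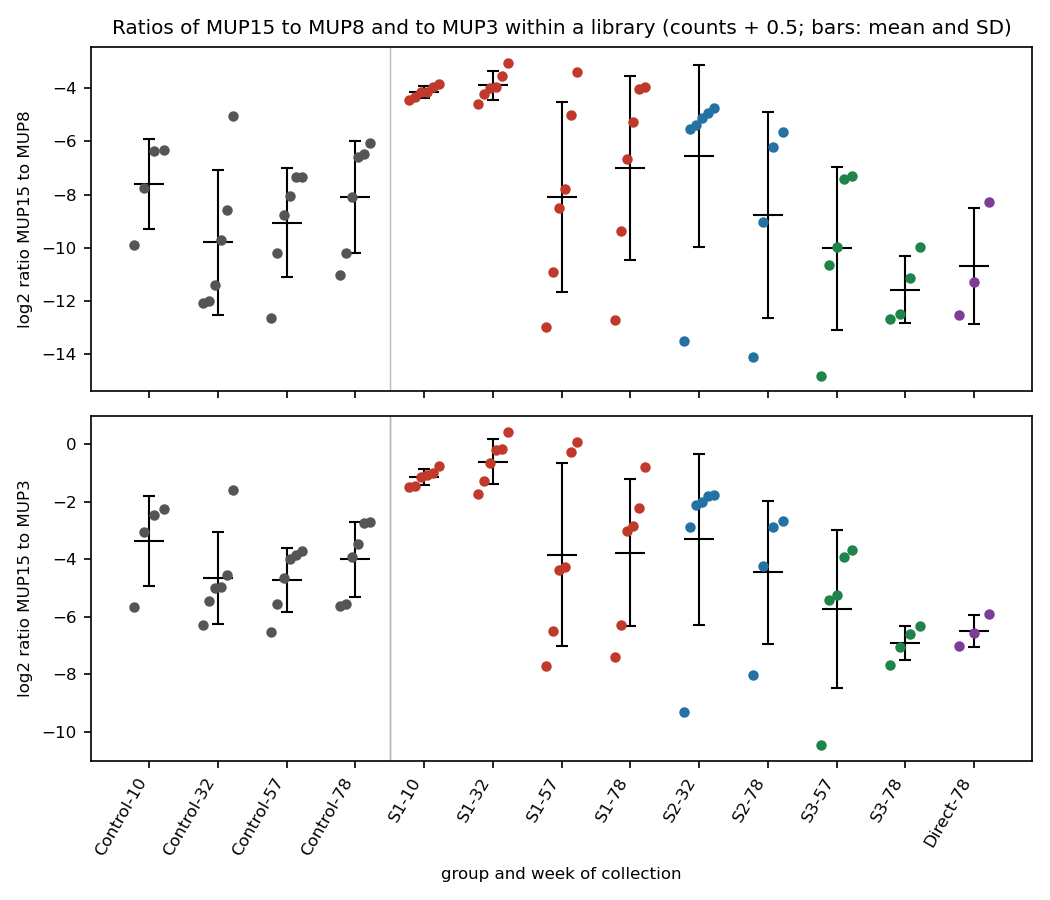
Log2 ratio of MUP15 to MUP8 and of MUP15 to MUP3 in each of 68 libraries, from counts plus 0.5, with bars for the group mean and SD. The S1-10 and S1-32 mice lie at -4.43 to -3.85 and -4.59 to -3.04 for MUP15 to MUP8, above all controls of the same week.

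Across the 68 libraries the MUP rows fell into pairs that moved together. MUP8 followed MUP13 (Spearman's rho 0.938, log2 CPM), and MUP15 followed MUP19 (0.931). MUP15 and MUP8, in contrast, had a rho of 0.159, while MUP3 had 0.590 with MUP8 and 0.623 with MUP15. The points share group, depth and the scaling of each library, so these values describe the libraries and carry no test. Mice 41 of S2-32 and 47 of S2-78 had 169628 and 159339 CPM of MUP8 beside 14.4 and 8.60 of MUP15, although mouse 41 had 45232 CPM of MUP19, the second highest in S2-32, and so departs from the pair of MUP15 and MUP19. Promoters are shown for the 3 MUP rows with an entry in the promoter table, 250 bases before the start of Mup15 (chr4:61439705-61439954), Mup19 (chr4:61782225-61782474) and Mup3 (chr4:62087318-62087567), from RefSeq on GRCm38.p6, minus strand, read 5′ to 3′, with the TATA-like motif TATATAA in capitals. RefSeq places these starts inside the GENCODE genes, so each stretch reaches into the GENCODE gene.
Mup15: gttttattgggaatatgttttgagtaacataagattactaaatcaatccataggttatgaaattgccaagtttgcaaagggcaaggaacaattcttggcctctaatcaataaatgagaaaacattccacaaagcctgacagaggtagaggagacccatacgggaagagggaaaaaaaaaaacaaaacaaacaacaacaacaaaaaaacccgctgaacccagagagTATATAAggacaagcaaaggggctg
Mup19: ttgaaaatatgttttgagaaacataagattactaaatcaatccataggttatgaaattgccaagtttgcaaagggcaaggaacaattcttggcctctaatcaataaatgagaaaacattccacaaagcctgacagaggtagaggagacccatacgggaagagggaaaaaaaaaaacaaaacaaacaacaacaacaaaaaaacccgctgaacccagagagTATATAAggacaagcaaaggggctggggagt
Mup3: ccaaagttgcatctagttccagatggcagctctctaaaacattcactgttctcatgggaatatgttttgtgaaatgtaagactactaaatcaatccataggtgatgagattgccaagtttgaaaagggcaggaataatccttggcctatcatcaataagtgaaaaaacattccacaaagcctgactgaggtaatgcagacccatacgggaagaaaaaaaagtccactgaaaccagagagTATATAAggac
Mup15 and Mup19 are identical at 241 of 256 aligned positions (94.1%), and Mup15 and Mup3 at 177 of 297 (59.6%). Mup8 and Mup13 have no promoter entry. Whether the identity of Mup15 and Mup19 is particular to them, and its part in the shared levels of their rows, was therefore not tested. TATATAA, searched on both strands, begins 25 bases before the RefSeq start in Mup15, 31 in Mup19 and 11 in Mup3, and occurs in 11 of 14 Mup promoters against 998 of 32851 promoters (3.04%). TTCNNNGAA, the palindrome that STAT factors such as STAT5B bind, was searched in the same windows and found in 0 of 14 Mup promoters and in 2306 of all (7.02%), which says only that these letters are not in those 250 bases.

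**Figure D5:**
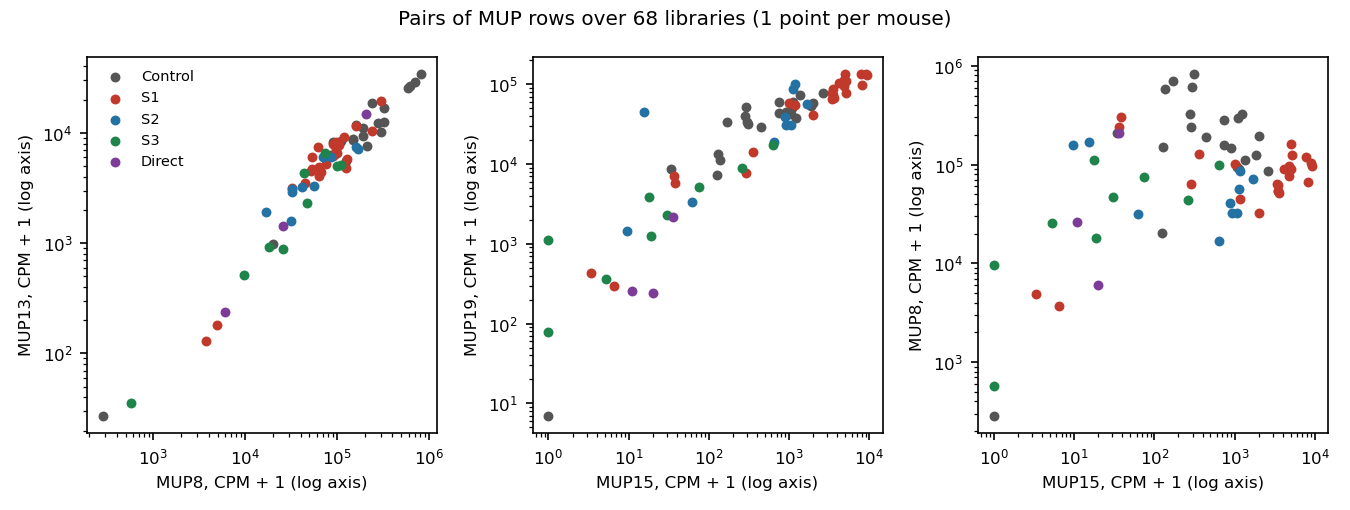
CPM plus 1 on log axes for MUP13 against MUP8, MUP19 against MUP15 and MUP8 against MUP15, 1 point per mouse, coloured by treatment series. The rho values are 0.938, 0.931 and 0.159.

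Outside the MUP rows, the genes whose levels ran most like each member were ranked over the same 68 libraries and 2200 genes. For MUP15 these were GM2083 (rho 0.960), the histone gene HIST1H2BC (0.928) and ABCB11, the bile salt export pump (0.917), and VAMP5 ran most opposite (-0.904). By RefSeq GM2083 is itself an older name of a Mup gene, and it is outside the summed share, which takes rows by name. For MUP3 they were AADAT (0.867), which degrades kynurenine and other amino acids, PCBD1 (0.828) and the cytochrome CYP2C29 (0.822), with CTNND1 most opposite (-0.750). For MUP8 they were IDE, the insulin-degrading enzyme (0.8001), and the complement genes C9 (0.706) and C8B (0.679), with VASP most opposite (-0.637).

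MUP13 and MUP19, which complete the 5 rows, were called in some of the groups of their partners MUP8 and MUP15 and not in others. In S1-32, where both partners were called, edgeR called neither (MUP13 -1.82, adjusted p = 0.0734, and MUP19 1.29, adjusted p = 0.288), while DESeq2 called MUP13 (-1.99) and not MUP19. In S3-78 edgeR called MUP13 and not MUP8, while DESeq2 called both (-2.71 and -2.67). MUP19 had the opposite sign to MUP15 in S1-78 (-0.30), S2-32 (-0.19) and S2-78 (0.05). MUP13 ran from 25.9 to 34105 CPM over all mice and fell in S2-32 (log2 fold change -2.37, SE 0.81, adjusted p = 0.0482, edgeR) and in S3-78 (log2 fold change -2.85, SE 0.98, adjusted p = 0.0405), 2 of 9 treated groups. In S2-32 it was from 1933 to 7066 CPM with a median of 3162, against from 6307 to 34105 CPM with a median of 21973 in Control-32, and the highest treated mouse lay above the lowest control. In S3-78 it was 34.2 CPM in mouse 55, 925 in mouse 56, 882 in mouse 59 and 5104 in mouse 60, all below the 5589.8 to 26410 CPM of Control-78. Its S2-32 call was lost without any of mouse 37 (-2.40), mouse 39 (-2.34), mouse 40 (-2.43), mouse 42 (-2.31), mouse 75 (-2.32), mouse 76 (-2.31) and mouse 78 (-2.29), and its S3-78 call without any of mouse 55 (-2.43), mouse 56 (-2.62), mouse 59 (-2.64), mouse 86 (-2.51) and mouse 88 (-2.80), and with all 78 libraries the values were -2.40 and -0.10, neither called, and without mouse 60 the S3-78 value was -4.35. MUP19 ran from 5.89 to 134037 CPM and fell in S3-78 (log2 fold change -5.06, SE 1.31, adjusted p = 0.00657) and in Direct-78 (log2 fold change -5.71, SE 1.55, adjusted p = 0.00688). It was 77.5 CPM in mouse 55, 1241 in mouse 56, 359 in mouse 59 and 3898 in mouse 60, and 257 CPM in mouse 64, 243 in mouse 65 and 2175 in mouse 66, all below the 34125 to 58092 CPM of Control-78. The Direct-78 call was lost without mouse 64 (-5.10), MUP19 was -7.51 there without mouse 66 and -6.38 in S3-78 without mouse 60, and with depth as a covariate neither was called (-4.07 in S3-78, -4.02 in Direct-78). The change of MUP19 in S1-10 minus that in Direct-78 was 6.65 (SE 1.82, adjusted p = 0.00439). Over the 9 treated groups MUP8 was called lower in 2 and had a negative value in 9, MUP3 was called lower in 2 with a negative value in 8, and MUP15 was called higher in 1 and lower in 2 with a positive value in 5. Relative to the median of all genes these signs kept under RLE factors, upper-quartile factors and factors computed without the MUP rows, and with library totals alone MUP15 turned in S1-78 and S2-32. Over all 17 comparisons, which include the 9 groups, those scalings moved that median by -0.49 to 0.40, by -0.61 to 0.45, by -0.15 to 0.10 and by -1.04 to 0.78 where they moved it by more than 0.1, and each of the 4 lowest values belongs to the S1-10 change minus the Direct-78 change.

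Some other liver genes that males express more strongly than females fell in S3-78 and Direct-78, and fewer were called in S1-10, S1-32, S2-32 and S3-57. Of 10 tested of 24 listed male-biased genes, 7 fell in S3-78, where 13.3% of all genes were called, among them the complement genes C8B (log2 fold change -2.83) and C9 (-3.12), the serpin SERPINA3K (-3.36) and the glutathione transferase GSTP1 (-2.57). The median of the 10 was -2.36, against 0.07 for all genes and -0.91 for 5 hepatocyte markers. In Direct-78, 6 of the 10 fell beside 24.4% of all genes called, with C8A at -3.75, SERPINA3K at -3.61 (-4.89 without mouse 65, lost without mouse 64 (-3.18) or mouse 66 (-3.12)) and GSTP1 at -2.93, and the median was -2.99, against -0.33 for all genes and -1.40 for the hepatocyte markers. Of the 7 calls in S3-78 there remained 4 without mouse 55, 5 without mouse 59 and 6 without mouse 56, 87, 89 or 90, 2 with depth as a covariate and 4 with library totals alone. Of the 6 in Direct-78 there remained 3 without mouse 64 and 5 without mouse 66, and 1 with depth as a covariate. Over all 2205 genes, that covariate gave 117 calls in S3-78 and 11 in Direct-78, against 294 and 539 without it. C8B and C9 were the 2 of 10 called in S2-32, beside 10.7% of all genes and with a list median of -0.043, with C9 at -2.46 (-3.42 without mouse 38) and C8B at -1.71 (-2.30 without mouse 38), the latter not called without mouse 39 (-1.65), mouse 40 (-1.76), mouse 41 (-1.497), mouse 42 (-1.54), mouse 75 (-1.75), mouse 76 (-1.61) or mouse 78 (-1.58). In S3-57, with 2 of the 10 called beside 6.39% of all genes, C8B had -2.37, lost without mouse 49 (-2.25) or mouse 51 (-2.16), and C9 -2.69, lost without mouse 51 (-2.49). C8A, the 1 of 10 called in S1-10 and in S1-32, beside 5.49% and 29.1% of all genes, rose in S1-10 (1.94), lost without mouse 68 (1.79), and in S1-32 (0.97), lost without mouse 20 (0.90), mouse 21 (0.83), mouse 22 (0.94), mouse 23 (0.93), mouse 73 (0.91), mouse 74 (0.84), mouse 75 (0.90), mouse 76 (0.87) or mouse 78 (0.91). The list's median was 1.45 in S1-10, 0.22 in S1-32 and -0.91 in S3-57, against -0.03, 0.05 and 0.01 for all genes. DESeq2 called 3 of the 10 in each of these groups. In S1-57, S1-78 and S2-78 edgeR called 0 of the 10, with 2, 1 and 4 at an unadjusted p under 0.05 and 0 called by DESeq2. Of 6 tested female-biased genes, the cytochromes CYP2A4 (5.13, and 3.86 without mouse 55) and CYP17A1 (3.38, lost without mouse 55 (0.65)) rose in S3-78, and CYP2A4 (4.41) and CYP4A14 (7.10, 5.29 without mouse 65 and 10.09 without mouse 86) in Direct-78. Depth as a covariate ended these 4 calls. With 1 of the 6 called in each of the next 3 groups, beside 1.63%, 29.1% and 5.49% of all genes, CYP4A14 also rose in S2-78 (8.998, 8.11 without mouse 44 and 11.96 without mouse 86) and fell in S1-32 (-7.32, -9.12 without mouse 22, -6.73 without mouse 73 and -6.42 without mouse 74), and CYP2A5 fell in S1-10 (-3.45, lost without mouse 68 (-1.60)). In S1-57, S1-78, S2-32 and S3-57 edgeR called 0 of the 6, with 4 at an unadjusted p under 0.05 over the 4 groups and 2 called by DESeq2. Whether these genes share a control with the MUPs, which are themselves male-biased, and the part of the hepatocyte content in both, was not tested.

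The growth hormone pathway, which sets the male level of MUPs, was represented by 19 of 27 listed genes. In S1-32, where 29.1% of all genes were called, 6 of the 19 changed, a share near that of all genes: STAT5B (log2 fold change 1.41), STAT3 (1.91, 2.86 without mouse 74, lost without mouse 75 (1.82), mouse 76 (1.71) or mouse 78 (1.65)), the hepatocyte factor CEBPA (1.02) and the kinase JAK2 (0.96, lost without any of 11 of the 12 mice, at 0.77 to 0.97) rose, and CEBPB (-1.85) and the inhibitor SOCS1 (-2.64, -3.37 without mouse 23, lost without mouse 75 (-1.99)) fell. The list's median was 0.90 against 0.05 for all genes, and of the 6 calls there remained 3 without mouse 75, 4 without mouse 76 or 78 and 5 without mouse 19, 20, 21, 22, 23, 24, 73 or 77, and 0 with depth as a covariate. Over all 2205 genes, that covariate gave 36 calls in S1-32, against 642 without it. In Direct-78, where 2 of the 19 were called beside 24.4% of all genes, the receptor GHR fell (-2.19), a call lost without mouse 64 (-2.08) or mouse 66 (-1.74), as did HNF4A (-2.19), lost without mouse 64 (-1.87) or mouse 66 (-1.84). In S1-10, with 2 of the 19 called beside 5.49% of all genes, CEBPB (-2.01) and IGFBP3 (-2.005), a carrier of insulin-like growth factors, fell, both lost without mouse 68 (-1.33 and -1.15). In S1-57, S1-78, S2-32, S2-78 and S3-57 edgeR called 0 of the 19, with 13 at an unadjusted p under 0.05 over the 5 groups and 6 called by DESeq2. Of 7 tested nuclear receptors, the xenobiotic receptor NR1I2 rose (1.47) and the oestrogen receptor ESR1 fell (-1.86) in S2-32, beside 10.7% of all genes called, and the glucocorticoid receptor NR3C1 alone fell in Direct-78, beside 24.4% (-1.61). ESR1 was not called without mouse 37 (-1.98), mouse 38 (-2.05), mouse 39 (-1.89), mouse 40 (-1.94), mouse 42 (-1.73), mouse 75 (-1.54), mouse 76 (-1.83) or mouse 78 (-1.88), nor NR3C1 without mouse 64 (-1.39) or mouse 66 (-1.18), and with depth as a covariate NR3C1 had 0.19. In the other 7 groups edgeR called 0 of the 7, with 3 at an unadjusted p under 0.05 over the 7 groups and 1 called by DESeq2. The part of these genes in the MUP values was not tested.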

How the data were processed

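Raw read counts per probed gene, deposited for 78 liver libraries, had been made by the authors and the assay's vendor from reads aligned with Bowtie (mm10 is named). The normalized signal, made by the authors with median-ratio scaling in Partek 10.0.22.0524, was used only for its 68 libraries and its 2205 genes after a filter on low values. The 10 libraries that the authors left out had totals from 244409 to 658155. All 13 groups were fitted once in edgeR 4.0.16 (R 4.3.3) by quasi-likelihood with TMM factors, and p was adjusted by Benjamini-Hochberg over all tested genes within a comparison. Differences between changes were called by adjusted p alone. Summed shares and ratios were compared by exact permutation, 2-sided, in Python 3.11.15 (numpy 2.4.6, pandas 2.3.3), adjusted over 9 and 27 tests. Correlations used log2 CPM with a prior count of 2. Sequences were read with Biopython 1.88 and figures drawn with matplotlib 3.10.9. limma 3.58.1 was loaded with edgeR, and the fit was tested on simulated data.

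Named genes are the MUP rows, the called genes of the listed groups (growth hormone and STAT5B, nuclear receptors, male-biased, female-biased, lipocalins, abundant secreted proteins and cell type markers) and the genes most like each MUP row. The members and lists were chosen with earlier results of these data known. Alternatives were RLE, upper-quartile and plain totals, totals and factors without MUP rows, all genes with a count, filterByExpr, all 78 libraries, depth as a covariate, the compared groups alone, DESeq2 1.42.0, another pseudocount of 5 and leaving out each library. Added after the data were seen were leaving out the 4 libraries with over 0.1% pancreas genes, leaving out the 2 with a squared Spearman correlation with the mean under 0.7 when computed without the MUP rows, and some or all alternatives for list genes, the age and stopping comparisons, differences between changes and the MUP3 ratios.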

Additional observations from a re-analysis of the deposited data

Results flagged for a closer look

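Of 60 groups of values tested, 9 held a mouse far from the others of its group, by Dixon's criterion at 95%, which chance gives in about 1 in 20. Mouse 68 of Control-10 was far below for all 3 members, with log2 CPM of 3.929 for MUP3 (nearest mouse 12.59), 8.143 for MUP8 (16.47) and -1 for MUP15 (9.525), a level at 0 counts. For MUP3, mouse 19 of S1-32 was far above its group at 14.06 (13.14), and mouse 27 of S1-57 at 9.069 (11.74) and mouse 31 of S1-78 at 8.787 (12.53) were far below theirs. For MUP8, mouse 84 of Control-57 was far below at 14.3 (17.18). Mouse 41 of S2-32 was far below for MUP15 at 3.899 (9.327) and for the log2 ratio of MUP15 to MUP8 at -13.49 (-5.543). No cause of these values was tested.

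The change under DCA differed between 10 weeks and 78 continuous weeks, tested as a difference of changes in edgeR, by 3.868 for MUP3 and by 8.046 for MUP15 on the log2 scale. Age and length of exposure cannot be told apart in this difference.

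Of the libraries that the authors left out, 4 held larger MUP shares than any kept control of the same week. Mouse 48 of S2-78 had 53.91%, mouse 57 of S3-78 had 61.05% and mouse 58 of S3-78 had 50.38%, against at most 39.58% in Control-78. Mouse 52 of S3-57 had 71.92%, against at most 27.29% in Control-57. The kept mice of S3-78 lay at 0.0973% to 14.1%, so that kept and left-out mice of this group lay on opposite sides of the controls.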

How the results depend on the processing

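Over the settings other than leaving out 1 library, 743 of 804 MUP fold changes kept their direction and their side of the threshold, 8 became called, 31 lost a call and 22 changed sign. With 1 library left out 739 of 799 kept both. Of the counts, shares and ratios, 200 of 224 kept theirs under other settings and 616 of 691 with 1 library left out, and of the list genes 721 of 891 and 632 of 800. In all that follows the cause was not tested.

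With all 78 libraries the log2 fold change changed sign for MUP8 in S1-10 (0.051), S3-57 (0.70), S3-57 against S1-57 (1.17) and Direct-78 against S3-78 (-1.16). It did so for MUP13 in S1-10 (0.016) and S3-57 (0.50), MUP19 in S2-78 (-0.50), MUP15 in Control-32 against Control-10 (0.023) and MUP3 in Direct-78 against S3-78 (-0.017). With depth as a covariate it did for MUP13 in S1-57 (-0.37), MUP15 in S2-32 (-0.61), S2-78 (2.10), S3-57 (0.51), Control-32 (0.34) and Control-78 (-1.32) against Control-10, NR3C1 in Direct-78 (0.19) and MUP8 in the S1-32 change minus the S1-78 change (0.66). Without the 2 libraries of low rank correlation, computed without the MUP rows, it did for MUP13 in S1-57 (-0.017), MUP15 in Control-32 against Control-10 (0.059) and MUP8 in Direct-78 against S3-78 (-1.24). With library totals alone it did for MUP19 in S1-78 (0.15) and S2-32 (0.19), where totals moved the median of all genes by 0.51 and 0.50 and MUP19 did not turn relative to it. It also did with the compared groups alone for MUP13 in S1-57 (-0.021), and without the 4 libraries with pancreas genes for CEL, a pancreas lipase, in S2-78 (-2.04).

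MUP3 was called in 2 of 9 treated groups, but in 1 with library totals alone, 0 with depth as a covariate and 1 without the libraries of low rank correlation. MUP8 was called in 2, but in 1 with library totals alone and 0 with all 78 libraries. MUP15 was called in 3, but in 0 with depth as a covariate and 1 without the libraries of low rank correlation. The age comparisons had 0 calls and 1 by DESeq2, and the S1-10 change minus the Direct-78 change had 2 calls and 0 with depth as a covariate. That covariate is the log2 of all counts, MUP rows included. Over all 2205 genes, calls with it went from 642 to 36 in S1-32 and from 294 to 117 in S3-78. They went from 539 to 11 in Direct-78 and from 745 to 11 in the difference of changes. Calls rose with it in S1-57, S1-78, S2-78 and S3-57, in the last from 141 to 223.

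The difference in summed share lost its call in S1-32 without the libraries with pancreas genes (-19.4) and in S3-78 with all 78 libraries (-2.79), and changed sign in S3-57 with all 78 (0.691). With all 78 libraries the MUP15 to MUP8 ratio passed in S3-78 (-5.80) and Direct-78 (-4.30), and the MUP3 to MUP8 ratio changed sign in S3-57 (-1.10). Without the libraries with pancreas genes the S2-78 differences changed sign, to 1.12 for MUP15 to MUP8, 0.37 for MUP3 to MUP8 and 0.75 for MUP15 to MUP3, and MUP3 to MUP8 lost its call in S1-32 (1.77) and S2-32 (1.92). That ratio also lost its S2-32 call with 5 counts added (1.92) and without the libraries of low rank correlation (1.63), where it changed sign in Direct-78 (1.09). MUP15 to MUP3 lost its S3-78 call with 5 counts added (-1.87).

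With each library left out in turn, the log2 fold change ranged as follows where a sign or call changed. MUP8 had -0.70 to 0.14 in S1-10, -1.22 to 2.43 in Direct-78 against S3-78 and -0.97 to 0.26 in the S1-32 change minus the S1-78 change. MUP3 had -0.39 to 0.0043 in S1-32 and -0.10 to 0.93 in Direct-78 against S3-78. MUP15 had -0.38 to 0.48 in S1-78, -0.053 to 1.40 in S2-32 and -1.29 to 0.19 in Control-32 against Control-10. MUP13 had -0.59 to 0.17 in S1-10 and -0.44 to 0.27 in S1-57, MUP19 -0.39 to 0.093 in S2-32 and -0.61 to 0.47 in S2-78, and CEL -2.01 to 10.29 in S2-78. MUP3 was called in 1 to 2 groups and MUP8 in 0 to 3. The difference in share ranged over -3.82 to 4.13 in S1-10, -22.4 to -16.6 in S1-32, -2.70 to 3.55 in S1-57, -13.8 to -8.76 in S1-78, -12.7 to -8.10 in S3-57 and -22.5 to -16.7 in S3-78. MUP15 to MUP8 ranged over 2.80 to 4.65 in S2-32, -1.70 to 1.12 in S2-78 and -1.67 to 0.23 in S3-57. MUP3 to MUP8 ranged over 1.57 to 2.20 in S1-32, -0.26 to 0.53 in S1-57, 1.63 to 2.26 in S2-32, -0.73 to 0.37 in S2-78, -0.29 to 0.34 in S3-57 and -1.36 to 1.09 in Direct-78. MUP15 to MUP3 ranged over -0.36 to 0.97 in S1-78, 1.00 to 2.54 in S2-32, -1.04 to 0.75 in S2-78, -1.53 to 0.16 in S3-57 and -3.23 to -2.65 in S3-78.

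No paired analysis was possible because no mouse is shared between groups. Groups of 3 to 5 mice limit the tests in S2-78, S3-57, S3-78, Direct-78 and Control-10. Depth and treatment cannot be told apart where the totals did not overlap. The authors left out 2 of 6 S3-78 mice, and with them MUP13 and the summed share lost their calls and MUP8 came to -0.48, while MUP3 (-3.50), MUP15 (-7.22) and MUP19 (-5.44) stayed called. Paralogs of nearly the same sequence cannot be told apart with certainty, and the proteins were not measured.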

Other observations

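GM2083, an older name of Mup13 in RefSeq, ran with MUP15 and MUP19 and not with the row called MUP13. It was 3202 to 6419 CPM (median 4283) in S1-10 and 4015 to 11226 CPM (median 6516) in S1-32, against 0.589 to 1983 CPM (median 1328) in Control-10 and 141 to 2339 CPM (median 649.6) in Control-32, so that its S1-32 mice, like those of MUP15, lay above all controls of that week. In S3-78 it was 0 to 47.9 CPM (median 11.7) and in Direct-78 0 to 13.5 CPM (median 10.8), below the 228 to 2128 CPM (median 1538) of Control-78. This gene was singled out after its values were seen.

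Of the 9 genes in the lipocalin list 2 were tested, LCN2 and FABP1, the latter a fatty acid-binding protein and not a lipocalin. LCN2, which binds the iron carriers of bacteria, rose in S1-32, where 29.1% of all genes were called, by a log2 fold change of 7.83 (7.18 without mouse 20 and 9.43 without mouse 77). In the other 8 groups edgeR called 0 of the 2, with 4 at an unadjusted p under 0.05 over the groups and 2 called by DESeq2. Of 9 tested of 17 listed secreted proteins, 3 rose in S1-32, with a median of the 9 of 0.054, near the 0.053 of all genes: the fibrinogen chains FGB (2.73) and FGG (1.48, lost without mouse 20 (1.19) or mouse 75 (1.32)) and the haemoglobin carrier HP (2.04). The other counts were 1 of 9 in S1-10, S2-32, S3-57 and S3-78 and 2 of 9 in Direct-78, beside 5.49%, 10.7%, 6.39%, 13.3% and 24.4% of all genes. HP also rose in S1-10 (1.962, lost without mouse 15 (1.33) or mouse 68 (1.81)). The lipid carrier APOE fell in S3-57 (-1.11), S3-78 (-1.16) and Direct-78 (-1.06, lost without mouse 64 (-0.87), mouse 65 (-0.85) or mouse 86 (-0.77)), FGB in Direct-78 (-3.64, lost without mouse 64 (-3.31)) and VTN in S2-32 (-1.22, lost without mouse 42 (-1.15), mouse 76 (-1.13) or mouse 78 (-1.199)). In S1-57, S1-78 and S2-78 edgeR called 0 of the 9, with 9 at an unadjusted p under 0.05 over the 3 groups and 3 called by DESeq2.

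The counts of cell type markers stand beside 5.49% of all genes called in S1-10, 29.1% in S1-32, 1.81% in S1-78, 10.7% in S2-32, 1.63% in S2-78, 13.3% in S3-78 and 24.4% in Direct-78. Among these markers, 1 of 5 hepatocyte genes passed in S1-32 and 1 in Direct-78, CPS1 higher (1.41, lost without mouse 19 (1.43), mouse 21 (1.34), mouse 22 (1.34), mouse 23 (1.40), mouse 24 (1.33), mouse 73 (1.28), mouse 75 (1.24), mouse 76 (1.25) or mouse 78 (1.28)) and HNF4A lower (-2.19). The collagens COL1A1 and COL3A1, 2 of 3 stellate cell and fibroblast genes, rose in S1-78 (3.83, and 3.21 without mouse 36, and 2.71) and in S2-32 (2.72 and 1.95, lost without mouse 78 (1.65)). COL1A1 alone rose in S2-78 (3.50) and fell in S1-10 (-2.05, lost without mouse 13 (-1.89), mouse 14 (-2.13), mouse 15 (-2.02), mouse 16 (-2.03), mouse 17 (-2.05), mouse 18 (-2.16), mouse 68 (-2.23), mouse 69 (-1.92) or mouse 71 (-1.98)). Of 3 macrophage genes C1QA (1.86, lost without mouse 21 (1.77), mouse 23 (1.80), mouse 24 (1.77), mouse 75 (1.77), mouse 76 (1.70) or mouse 78 (1.65)) and CD68 (2.40) rose in S1-32, and CD68 rose in S2-32 (2.06, lost without mouse 40 (2.003), mouse 42 (2.04), mouse 73 (1.85), mouse 76 (1.78) or mouse 78 (1.72)) and fell in Direct-78 (-2.95, lost without mouse 64 (-2.14), mouse 65 (-2.22), mouse 85 (-2.77) or mouse 90 (-2.73), and -7.53 without mouse 66). Of 3 endothelial genes KDR rose in S1-32 (1.73, and 2.34 without mouse 74, lost without mouse 75 (1.51)). Of 3 cholangiocyte genes KRT19 rose (2.94, 3.71 without mouse 65 and 3.90 without mouse 90, lost without mouse 64 (1.84), mouse 66 (3.13), mouse 85 (2.95), mouse 87 (2.82), mouse 88 (2.82) or mouse 89 (2.84)) and SPP1 fell (-3.63, lost without mouse 64 (-2.84), mouse 66 (-3.81) or mouse 90 (-2.39)) in Direct-78. Of 2 erythroid genes ALAS2 fell in S3-78 (-3.04, -4.11 without mouse 60) and Direct-78 (-3.38, -2.79 without mouse 65). The 1 lymphocyte gene tested was called in 0 of 9 groups by edgeR, with 3 at an unadjusted p under 0.05 and 2 called by DESeq2. Of 9 tested pancreas genes 5 rose in S1-78, of which there remained 0 without mouse 36, 87, 89 or 90, 2 without mouse 88, 3 without mouse 85 and 4 without mouse 86, and 3 in S2-78, of which there remained 0 without mouse 47, 1 without mouse 87, 88 or 90 and 2 without mouse 85, 86 or 89, and CELA2A rose in S1-32 (4.55, lost without mouse 19 (0.62), mouse 73 (4.47), mouse 74 (4.22), mouse 75 (5.01), mouse 76 (4.22), mouse 77 (4.42) or mouse 78 (4.75)). DESeq2 called 0 pancreas genes in these groups. The part of other cell types in the MUP values was not tested.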
